A study of Nothobranchius furzeri with 12 samples.

Results

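Tail fins with yellow colour were compared with the matching fin region of females of the same strain, GRZ-BELL, in Nothobranchius furzeri, the turquoise killifish, an annual fish with a short life. The comparison rests on 6 of the 12 libraries of the series, 3 of yellow tails and 3 of GRZ-BELL female tails, chosen by their titles. It covers every entry with a mean of at least 10 normalized reads over the 12 libraries, 15170 of 20788. The other 6 libraries, red tails and female tails of the strain MZCS002, entered the estimate of the spread and the test of whether the strains differ. Fin tissue was cut from the coloured area or its counterpart in females, and the submitters describe the 3 libraries of each group as biological replicates. The labels give no age, treatment or genetic alteration for any group, and they do not say that the fish with yellow tails were males. Yellow colour therefore cannot be told apart from sex in what follows. RNA was taken from whole pieces of fin, so fewer cells of a type and less RNA per cell cannot be told apart either.

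Fish skin colour comes from pigment cells that descend from the neural crest. Melanophores make black melanin in melanosomes, xanthophores hold yellow to red pteridines and carotenoids, and iridophores reflect light from stacked crystals of purines, mainly guanine. Each type depends on its own enzymes and transcription factors, and on growth factors such as Kit ligand and Csf1 that the surrounding skin supplies.

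The 6 libraries held between 10463861 (yellow tail 3) and 16113931 (GRZ-BELL female 3) recovered reads, and between 17881 and 18568 genes with a read. Within a group, a library's mean correlation with the other libraries was 0.940 to 0.957. The first principal component held 48.3% of the variance and set the yellow tails (-62.8 to -36.3) apart from the females (42.7 to 50.3). The second held 23.6% and ran from -45.6 in yellow tail 2 to 50.8 in yellow tail 3. MZCS002 female 2, a library outside the comparison, stood apart from its own group by its low depth (5495553 reads) and a mean correlation of 0.847. The labelled tissue carried the genes of fin skin. The epidermal keratin gene krt5 alone took 6.33% to 9.57% of all normalized reads, and the epithelial adhesion gene epcam was at 15074 to 25317 in yellow tails and 27007 to 27545 in females. Of the skeletal muscle list, the muscle actin gene acta1b (0 to 4.12 normalized reads) and the myosin light chain gene mylpfa (0 to 5.50) were near 0. The sum of the 27 entries of that list, of which 9 were tested, was 1104 to 1477. The tropomyosin gene tpm1, also of other cells, was at 636 to 1025.

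More genes were higher than lower in yellow tails. With limma and a Benjamini-Hochberg adjusted p under 0.05, 226 genes (1.49% of those tested) were called higher and 53 (0.349%) lower, 1.84% in either direction. The median change of the called genes was 2.95 on the log2 scale among those that rose and -2.09 among those that fell, while the median over all tested genes was -0.02. No called gene had a change smaller than 0.98 on that scale, and 204 of the 279 changed by more than 2. Groups did not overlap for any of the 279, as was true of 25.9% of all tested genes. An unadjusted limma p under 0.05 was found for 12.3% of all tested genes. A symbol was known for 119 of the genes that rose and 34 of those that fell. The fold changes are on the scale of log2(normalized reads + 1), with standard errors from the fit.

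The test was uneven in what it could detect. In simulated counts it recovered 80.60% of 4-fold changes but 7.46% of 2-fold ones (15060 genes), so a gene that was not called may still differ. Of the called genes, 125 that rose and 7 that fell kept their call when each of the 6 libraries was left out in turn. Leaving out yellow tail 1 or 2 lowered the number that rose to 148 and 137. The number that fell was 15 without yellow tail 1 or 2, and 13, 26 and 16 without GRZ-BELL females 1, 2 and 3. Without MZCS002 female 2 the counts were 394 and 138. The values just below the filter on low levels were those of dtna (9.96) and apba2b (9.9959), and just above it those of zfpm2a (10.0063) and rassf5 (10.0417).

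**Figure D1:**
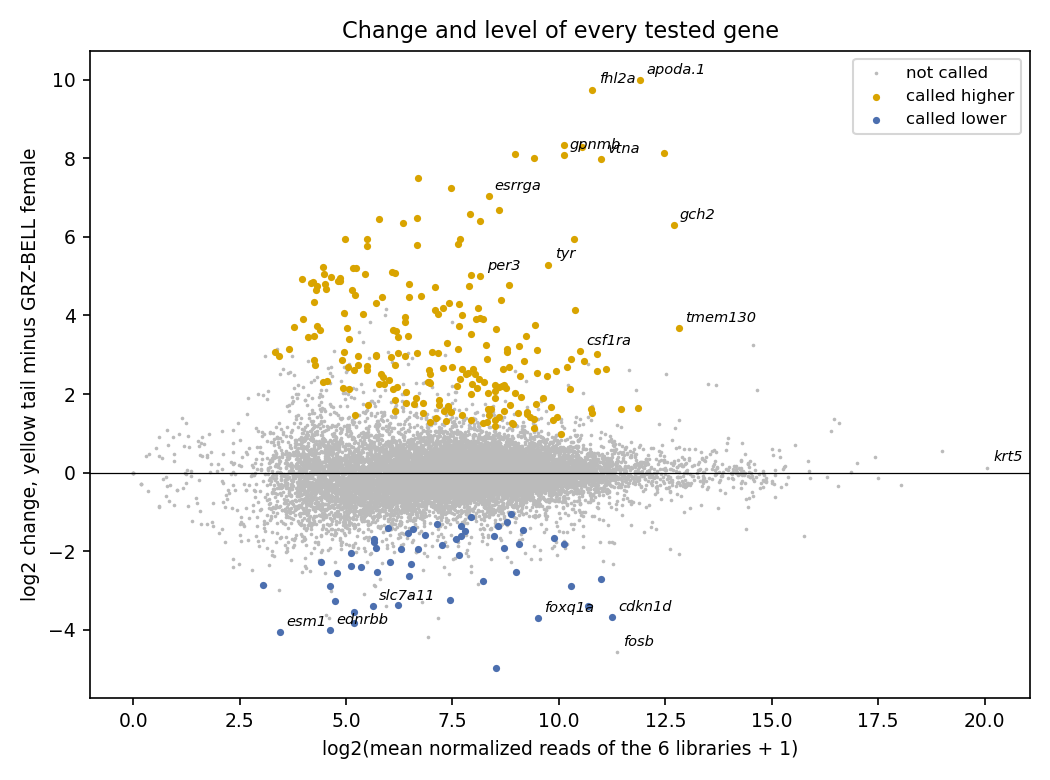
Each point is one of the 15170 tested genes, with its level over the 6 libraries on the x axis (log2 of the mean normalized reads + 1) and its log2 change between yellow tails and GRZ-BELL females on the y axis. The 226 genes called higher (yellow) spread up to a change of 9.99 for apoda.1, whereas the 53 called lower (blue) lie between -1.05 and -4.98.

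Melanin genes had the highest share of members that rose among the 42 gene lists, which were chosen with earlier results of these data known. The rank is therefore not a test of the lists. Of 19 tested genes of melanin enzymes and the melanosome, 9 rose and 1 fell, with a median log2 change of 2.14. Over all tested genes 1.49% rose and 0.349% fell, the shares to set beside each list below. Between red tails and MZCS002 females the melanin median was 2.14 as well. Normalized reads of tyr, whose enzyme tyrosinase starts melanin synthesis, were 1301, 2627 and 1128 in yellow tails 1 to 3 and 63.4, 20.0 and 46.1 in females 1 to 3. The lowest yellow library lay far above the highest female one, and yellow tail 2 was the highest of all. The melanosome membrane gene tyrp1b read 820.0, 1006 and 529 against 75.2, 129.9 and 164. For pmela, which builds the fibrils on which melanin is laid down, the values were 3036, 4223 and 2559 against 402, 559 and 686. In both genes the order of the yellow libraries was the same as in tyr for the highest and the lowest.

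Other melanocyte genes rose as well. Levels of trpm1b, a melanocyte ion channel, were 1111, 1384 and 1370.2 in yellow tails and 99.8, 76.6 and 109 in females, a log2 change of 3.75 ± 0.28 (limma adjusted p = 2.0e-05). The melanosome protein gene mlana read 1478, 2010.2 and 1520.0 against 276, 256 and 287, and rose by 2.60 ± 0.31 (limma adjusted p = 5.0e-04). The tetraspanin gene tspan10 rose by 3.05 ± 0.38 (limma adjusted p = 6.9e-04), from 21.1, 19.2 and 18.8 in females to 147, 270.1 and 125. The melanoregulin gene mreg, whose product helps move melanosomes, was at 489.8, 489 and 482 in yellow tails and 161, 163 and 149 in females with little spread in either group (1.62 ± 0.29, limma adjusted p = 0.0088). The small GTPase gene rab38b had 2 reads in all 3 females and 42.2, 56.4 and 28.9 normalized reads in yellow tails, a ratio of means of 54.3 (95% counting interval 20.1 to 619, over the summed reads of each group). The GTPase genes rab27a, rab32a and rab38a of the same list, also of melanosome or vesicle transport, were not called by limma (log2 changes 0.52 ± 0.30, 0.37 ± 0.25 and 2.81 ± 0.83), and DESeq2 called rab38a.

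Of the transcription factor genes mitfa and mitfb, limma called mitfb alone, although both had a higher mean in yellow tails. The copy mitfb was at 563, 566 and 377 against 217, 233 and 202 and rose by 1.18 ± 0.25 (limma adjusted p = 0.030). The copy mitfa, required for zebrafish melanophores, was at 52.2, 125 and 39.9 against 21.1, 45.8 and 25.8. Its ranges overlapped and it was not called (limma adjusted p = 0.48). Also not called were dct, the next enzyme of the pathway (0.96 ± 0.23, limma adjusted p = 0.061), gpr143, a melanosome receptor (2.19 ± 0.52, limma adjusted p = 0.057), and oca2, a melanosome membrane protein (2.14 ± 0.59, limma adjusted p = 0.11). Every yellow library exceeded every female one for each of these, as was true of 13.1% of all tested genes. DESeq2 called all 3 and edgeR called gpr143 and oca2. Without MZCS002 female 2, a library outside the comparison, limma called 12 members of the melanin list higher instead of 9. The gene that fell, slc7a11, encodes a cystine importer and read 4.01, 6.08 and 6.87 in yellow tails and 71.7, 24.2 and 178 in females. Its call was lost without any 1 of the 6 libraries except GRZ-BELL female 2 (highest limma adjusted p 0.21), and with a pseudocount of 0.5. The call of mitfb was lost without any but yellow tail 3 (highest 0.16), and those of mreg and mitfb under scaling to equal library totals. Of 15 genes of the complexes that assemble melanosomes, none was called (1 at an unadjusted p under 0.05, and 0 called by edgeR and 1 by DESeq2), and their median log2 change was 0.36.

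**Figure D2:**
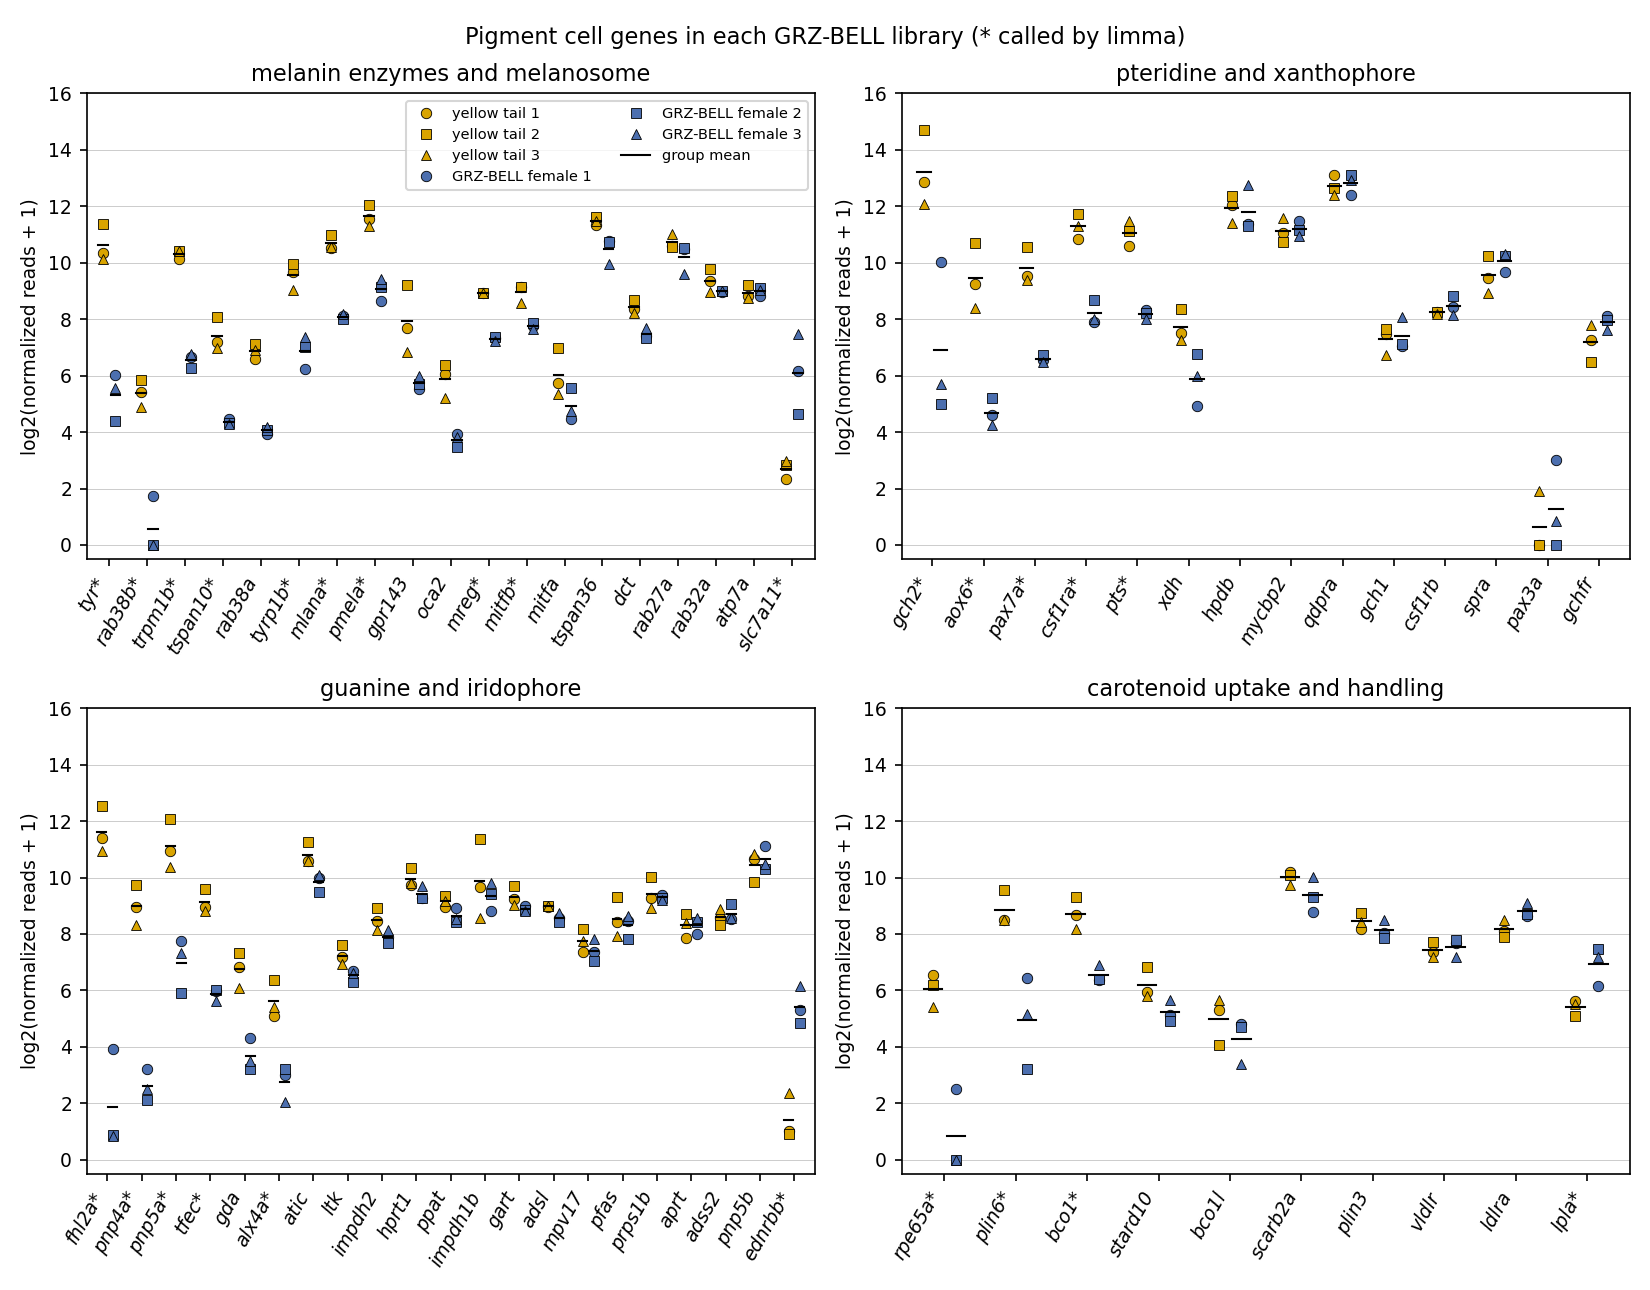
Values of every tested member of the 4 pigment lists in the 6 GRZ-BELL libraries, as log2(normalized reads + 1), with symbols for libraries 1 to 3 and a line at each group's mean. Yellow tail 2 (yellow squares) is the highest yellow library for 19 of the 22 genes that rose, among them gch2, tyr and fhl2a.

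Among pteridine genes, gch2, pts and aox6 rose in yellow tails and the other enzymes were not called. Of 14 pteridine and xanthophore genes 5 rose and none fell. The median log2 change of the list was 0.03, and 7 of the 14 lay below 0 (median -0.04 under equal library totals and -0.01 under quantile normalization). The gene gch2, whose product GTP cyclohydrolase opens the pathway in xanthophores, read 7480.4, 26834 and 4351 in yellow tails and 1056, 30.8 and 51.6 in females. Both groups were wide: yellow tail 2 held several times the reads of the other yellow tails, and GRZ-BELL female 1 far more than the other females. It rose by 6.30 ± 1.08 (limma adjusted p = 0.0072), a call lost with edgeR (adjusted p = 0.060). The next enzyme gene, pts, was at 1554, 2234 and 2845 against 317, 298 and 254 (2.89 ± 0.28, limma adjusted p = 1.2e-04), with yellow tail 3 highest. The aldehyde oxidase gene aox6 read 606, 1681 and 339 against 23.5, 35.8 and 17.98.

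None of the enzyme genes that follow was called. The sepiapterin reductase gene spra was at 707.6, 1217 and 491 in yellow tails and 811, 1198 and 1277 in females, and the dihydropteridine reductase gene qdpra at 8822, 6392 and 5372 against 5429, 8867 and 7891. The ranges of both overlapped. The other GTP cyclohydrolase gene, gch1, was at 177, 202 and 104 against 130.4, 138 and 272, and gchfr, whose product holds that enzyme back, at 153, 88.6 and 221 against 279.6, 252 and 197. The gene xdh, which encodes xanthine dehydrogenase, read 184, 325 and 151 against 29.4, 109 and 61.8. Its yellow libraries all lay above its female ones, yet it was not called (1.82 ± 0.61, limma adjusted p = 0.21).

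Regulators of the xanthophore lineage rose as well. The receptor gene csf1ra, which xanthophores need to develop, read 1856, 3435 and 2529 in yellow tails and 241, 413 and 259.5 in females (3.09 ± 0.34, limma adjusted p = 2.7e-04). Its close relative csf1rb, a gene of macrophages, read 306, 308 and 291 against 345, 448 and 281 and was not called (limma adjusted p = 0.85). The transcription factor gene pax7a was at 731, 1512 and 676 against 92.8, 106 and 89.1 (3.23 ± 0.33, limma adjusted p = 1.4e-04). Both csf1ra and pax7a kept their call with any of the 6 libraries left out. The related factor gene pax3a had 2 reads in the yellow tails and 7 in the females.

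Genes of guanine and iridophores rose in a small number with large changes. Of 21 tested, 5 rose and 1 fell, and the median log2 change was 0.53. The LIM-domain gene fhl2a, active in iridophores, read 2673, 5964 and 1964 in yellow tails and 14.1, 0.833 and 0.782 in females, so that 14.1 in GRZ-BELL female 1 was the highest female value. Guanine handling also involves purine nucleoside phosphorylases, encoded among others by pnp4a and pnp5a. Values of pnp4a were 496, 852 and 320.2 against 8.22, 3.33 and 4.69 (6.40 ± 0.68, limma adjusted p = 2.0e-04). Those of pnp5a were 1970.2, 4276 and 1330.3 against 213, 58.3 and 158 (4.15 ± 0.58, limma adjusted p = 0.0017). In each of these genes yellow tail 2 was highest and yellow tail 3 lowest. A further copy, pnp5b, was at 1607, 921 and 1839 against 2207, 1274 and 1444, with overlapping ranges, and was not called (limma adjusted p = 0.91).

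The transcription factor genes of this list also rose. The gene tfec, needed for zebrafish iridophores, read 493, 763 and 454 against 62.3, 63.3 and 48.5 (3.25 ± 0.32, limma adjusted p = 1.3e-04). The homeobox gene alx4a read 33.1, 81.6 and 41.2 against 7.05, 8.33 and 3.13 (2.86 ± 0.50, limma adjusted p = 0.0083), a call lost without yellow tail 2 (limma adjusted p = 0.060). The receptor kinase gene ltk, which zebrafish iridophores require, was at 144, 193 and 121 against 102, 78.3 and 96.9 and was not called (limma adjusted p = 0.55).

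Enzymes that build purines from scratch were not called. The last enzyme gene of that route, atic, was at 1537, 2432 and 1528 in yellow tails and 1015, 710.5 and 1077 in females (0.96 ± 0.28, limma adjusted p = 0.13), with no overlap. For gart, ppat and adsl of the same route the yellow libraries also exceeded every female one, at log2 changes of 0.44 ± 0.30, 0.53 ± 0.24 and 0.41 ± 0.22. For pfas they overlapped. Of all tested genes, 13.1% were higher in yellow tails without overlap. The salvage gene aprt was at 229, 414 and 337 against 253, 339.8 and 381, with overlapping ranges, and was not called. The gene prtfdc1a, a relative of the purine salvage gene hprt1, read 336, 763 and 337 against 5.87, 2.50 and 3.13 (6.58 ± 0.70, limma adjusted p = 2.0e-04). The gene hprt1 itself was at 848, 1289 and 897 against 617, 616 and 822 and was not called. The transporter gene slc23a4, of a family that carries ascorbate or nucleobases, read 262, 834 and 113 against 1.17, 5.00 and 7.04 (5.95 ± 0.85, limma adjusted p = 0.0020). In both of these genes that rose, yellow tail 2 was again highest.

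Named after their values were seen, 2 further genes of purine breakdown and 1 of folate metabolism rose. The adenosine deaminase gene ada2b was at 219, 494 and 173 against 18.8, 10.8 and 12.5 (4.18 ± 0.47, limma adjusted p = 3.2e-04). The gene uraha, whose product acts on an oxidation product of uric acid, was at 605, 1093 and 661 against 91.6, 103 and 75.8 (3.07 ± 0.71, limma adjusted p = 0.047). The mitochondrial folate enzyme gene mthfd2 rose by 1.68 ± 0.34 (limma adjusted p = 0.021). The call of uraha was lost without any 1 of the 6 libraries (highest limma adjusted p 0.20), and that of mthfd2 without yellow tail 1 or 2 or GRZ-BELL female 1 or 2 (highest 0.12). The guanine deaminase gene gda, a listed gene, read 112, 158 and 67.3 against 18.8, 8.33 and 10.2 with no overlap, and was not called with limma (adjusted p = 0.15), while edgeR and DESeq2 called it.

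Carotenoid and retinoid genes changed in both directions. Of 10 tested genes of carotenoid uptake and handling, 3 rose and 1 fell, with a median log2 change of 0.67. The droplet coat gene plin6, linked to carotenoid droplets of xanthophores in zebrafish, read 356, 751 and 360.1 in yellow tails and 85.7, 8.33 and 35.2 in females. The gene bco1, whose enzyme splits beta-carotene into retinal, was at 403, 626 and 289 against 82.2, 83.3 and 119. The isomerase gene rpe65a, of the visual cycle of the retinal pigment epithelium, read 93.3, 71.2 and 41.2 against 4.70, 0 and 0, with no read in GRZ-BELL females 2 and 3 (5.21 ± 0.80, limma adjusted p = 0.0034). Female levels of rpe65a were close to the 2.35 to 4.12 normalized reads that 3 reads stand for.

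Other genes of retinal handling gave a mixed picture. The opsin gene rgra, named after its values were seen, also belongs to the retinal pigment epithelium in other vertebrates and read 28.1, 54.7 and 19.2 against 1.17, 3.33 and 1.56 (3.47 ± 0.62, limma adjusted p = 0.0094). The retinal-binding gene rlbp1b, also chosen after its values were seen, was at 35.1, 29.5 and 57.7 against 9.40, 3.33 and 6.25. Its groups did not overlap, but it was not called (limma adjusted p = 0.26). The gene aldh1a2, which makes retinoic acid, fell from 48.2, 92.5 and 64.1 in females to 10.0, 13.0 and 12.4 (-2.39 ± 0.53, limma adjusted p = 0.038). Of 14 genes of retinoid handling, bco1 rose, aldh1a2 fell, and the median log2 change was 0.03. Calls of bco1 (highest limma adjusted p 0.22) and aldh1a2 (highest 0.19) were lost without any 1 of the 6 libraries and under equal library totals. The calls of plin6 and rgra were lost without yellow tail 2 (limma adjusted p 0.063 and 0.067).

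Growth factors that pigment cells depend on and one of their receptors rose. Of 17 tested pigment cell ligands and receptors 3 rose and 2 fell, with a median log2 change of -0.22. The ligand gene csf1b, whose product binds the Csf1 receptor, was at 1242, 1931 and 1137 in yellow tails and 199.7, 282 and 288 in females (2.46 ± 0.31, limma adjusted p = 6.9e-04). The Kit ligand gene kitlga, which promotes survival and migration of melanophores, was at 852, 1253 and 863 against 349, 448 and 338 (1.37 ± 0.23, limma adjusted p = 0.0057). Both kept their call with any of the 6 libraries left out. The third was csf1ra. The other Csf1 receptor ligand gene, il34, was at 74.3, 47.8 and 74.2 against 97.5, 59.1 and 34.4, with overlapping ranges, and was not called (limma adjusted p = 0.96).

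The receptors that fell had few reads in yellow tails. The endothelin receptor gene ednrbb read 1.00, 0.868 and 4.12 in yellow tails and 38.8, 27.5 and 69.6 in females (-4.01 ± 0.81, limma adjusted p = 0.022). The melanocortin receptor gene mc5ra read 16.1, 11.3 and 9.62 against 36.4, 66.6 and 61.8 (-2.05 ± 0.44, limma adjusted p = 0.031). The call of ednrbb was lost without yellow tail 1 or 2 or GRZ-BELL female 1 or 3 (highest limma adjusted p 0.11). That of mc5ra was lost without any 1 of the 6 except GRZ-BELL female 1 (highest 0.14) and under equal library totals, and both were lost with a pseudocount of 10.

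Several transcription factor genes were nearly silent in females. The orphan nuclear receptor gene esrrga, a relative of the estrogen receptors, read 533, 750.2 and 654 in yellow tails and 7.05, 2.50 and 3.13 in females (7.04 ± 0.65, limma adjusted p = 9.8e-05). The LIM homeobox gene lhx6b had 1 read in the 3 females and 116, 113 and 93.5 normalized reads in yellow tails, a ratio of means of 388 (95% counting interval 64.8 to 14412). The homeobox gene onecut2 had no read in females but 69.3, 52.1 and 60.5 normalized reads in the yellow tails. Its level there was at least 21.7-fold higher, set against 3 reads per library. All 3 kept their call with any of the 6 libraries left out. The tachykinin gene tac3a, which encodes the neuropeptide neurokinin B, also had no read in females and read 83.3, 293 and 236 in yellow tails. It was the 1 gene called of 6 tested among tachykinins, neuropeptides and their receptors. Among 26 nuclear receptors limma called 2, esrrga and roraa. Of these 26, edgeR called 2 higher and 2 lower, DESeq2 2 and 3, and a fit on only the 6 GRZ-BELL libraries 3 and 3. The neurokinin B receptor gene tacr3a, chosen after its values were seen, was at 92.3, 119.8 and 56.3 against 39.9, 31.7 and 39.1. The receptor's groups did not overlap, and it was not called (limma adjusted p = 0.81, with the spread taken over all 12 libraries).

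Among 48 listed homeobox and forkhead genes, a list without lhx6b and onecut2, 3 rose and 1 fell, with a median log2 change of 0.02. The forkhead gene foxq1a fell from 1401, 834 and 1837 in females to 158, 64.3 and 93.5 in yellow tails (-3.70 ± 0.53, limma adjusted p = 0.0020) and kept its call with any of the 6 libraries left out. The neural crest gene foxd3 was at 427, 544 and 264 against 91.6, 61.6 and 95.4 (2.26 ± 0.49, limma adjusted p = 0.033). It was the 1 gene called among 20 of the neural crest, whose median log2 change was 0.10. The posterior homeobox gene hoxd12a read 43.2, 57.3 and 60.5 against 15.3, 19.2 and 21.9 (1.47 ± 0.34, limma adjusted p = 0.047), and alx4a, given above, was the other. The calls of foxd3 (highest limma adjusted p 0.17) and hoxd12a (highest 0.20) were lost under equal library totals. They were also lost without any 1 of the 6 libraries, except that foxd3 kept its call without yellow tail 3.

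Genes of lipid droplets, the cell surface and membranes held some of the highest increases. The apolipoprotein D gene apoda.1 read 6002, 9910.3 and 7094 in yellow tails and 29.4, 0.833 and 6.25 in females, where GRZ-BELL female 2 held 1 read. The gene dgat2, whose enzyme makes triacylglycerol, read 189, 452 and 137 against 14.1, 11.7 and 10.2 (4.15 ± 0.64, limma adjusted p = 0.0035). With plin6 these were the 3 of 38 lipid genes that rose. The lipoprotein lipase gene lpla (-1.53 ± 0.35) and the sterol synthesis gene lss (-1.41 ± 0.31, limma adjusted p = 0.037) fell, and the median log2 change of the list was -0.24. The call of lss was lost without yellow tail 1 or 2 or GRZ-BELL female 1 or 3 (highest limma adjusted p 0.18), and that of lpla (limma adjusted p = 0.046) without any 1 of the 6 except GRZ-BELL female 1 (highest 0.21). Both were lost in a fit on only the 6 GRZ-BELL libraries.

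The matrix protein gene vtna, which encodes vitronectin, had the smallest p of all named genes. It read 2436, 7817 and 1976 in yellow tails and 12.9, 12.5 and 11.7 in females, so that the female values were nearly equal while yellow tail 2 held over 3 times the reads of either other yellow tail. The glycoprotein gene gpnmb, active in melanosomes and in macrophages, read 1966, 3585 and 1082 against 9.40, 6.66 and 3.91. It was the 1 gene called among 36 of lysosomes and the proton pump (median log2 change 0.08). The transmembrane protein gene tmem130 was at 9897, 19552 and 10413 against 2180.1, 632 and 701.2 (3.67 ± 0.61, limma adjusted p = 0.0056). The calcium-activated chloride channel gene ano2b had 2 reads in the females and 72.3, 126 and 64.6 normalized reads in yellow tails, a ratio of means of 168 (95% counting interval 41.9 to 1269). The microtubule-binding gene map7a was at 244, 275 and 282 against 21.1, 11.7 and 14.9, with little spread in either group (4.02 ± 0.29, limma adjusted p = 2.0e-05). The podoplanin gene pdpn, which encodes a surface glycoprotein, was at 2758, 2259 and 2835 against 802, 821 and 944 (1.61 ± 0.23, limma adjusted p = 0.0017). All 6 genes kept their call with any of the 6 libraries left out.

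Among the genes that fell were single genes of growth control, stress and immune signals. Of all tested genes, 0.349% were called lower. The cell cycle inhibitor gene cdkn1d was at 269, 252 and 596 in yellow tails and 5619, 4228 and 3660.0 in females, and it was the 1 gene called among 38 of the cell cycle, whose median log2 change was -0.12. The gene txnipa, which encodes a thioredoxin-binding protein that limits glucose uptake, was at 99.4, 318 and 629 against 3748, 1885 and 3252 (-3.39 ± 0.75, limma adjusted p = 0.037). The insulin-like growth factor binding protein gene igfbp1a was at 37.1, 13.9 and 52.2 against 458, 249.9 and 223 (-3.25 ± 0.68, limma adjusted p = 0.027). The calls of txnipa (highest limma adjusted p 0.17) and igfbp1a (highest 0.14) were lost without any 1 of the 6 libraries except yellow tail 3, and that of txnipa with edgeR.

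The chemokine genes ccl44 and ccl20b, whose products attract immune cells, fell. The gene ccl44 was at 51.2, 64.3 and 118 in yellow tails and 239.6, 375 and 349 in females (-2.09 ± 0.36, limma adjusted p = 0.0072) and kept its call with any of the 6 libraries left out. The gene ccl20b was at 194, 77.3 and 187 against 496, 1009 and 1091 (-2.53 ± 0.58, limma adjusted p = 0.045). Of 25 chemokine and cytokine genes, a list without ccl44, ccl20b fell and csf1b rose, with a median log2 change of -0.47. The cytokine signalling inhibitor gene socs3b was at 178, 201 and 143 against 581, 764 and 632 (-1.92 ± 0.44, limma adjusted p = 0.046) and was the 1 call among 16 interferon response genes. Calls of ccl20b (highest limma adjusted p 0.21) and socs3b (highest 0.17) were lost without any 1 of the 6 libraries and under equal library totals, and that of socs3b with edgeR.

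Vessel and matrix genes had few members that fell. The endocan gene esm1, of endothelial cells, had 1 read in the yellow tails and 17.6, 20.0 and 21.1 normalized reads in females, 67.6 times the yellow mean (95% counting interval 9.88 to 2284). None of the 25 listed vessel and lymphatic genes was called (3 at an unadjusted p under 0.05, 0 called by edgeR and 1 by DESeq2), and esm1 is not among them. The matrix Gla protein gene mgp, an inhibitor of calcification, was at 17.1, 28.7 and 37.1 against 108, 266 and 89.1 (-2.33 ± 0.52, limma adjusted p = 0.040). The basement membrane genes lama5 (-1.36 ± 0.27, limma adjusted p = 0.021) and, named after its values were seen, fras1 (-1.84 ± 0.28, limma adjusted p = 0.0030) fell as well. The calls of esm1 and fras1 held with any of the 6 libraries left out. That of mgp was lost without any of them (highest limma adjusted p 0.19), and that of lama5 without yellow tail 1 or 2 or GRZ-BELL female 1 or 3 (highest 0.11). Of 45 matrix protein genes, vtna rose and lama5 fell, and the median log2 change was -0.11.

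Of 25 tested circadian clock genes, 3 rose and none fell, with a median log2 change of 0.53. DESeq2 called 6 higher and edgeR 3, a fit on only the 6 GRZ-BELL libraries 8 higher and 1 lower, and limma called 1 higher whichever of the 6 libraries was left out. For 12 of the 25 all yellow libraries lay above all female ones, and for 6 below, whereas 13.1% and 12.9% of all tested genes did so. The clock gene per3, a repressor in the core loop, read 689, 419 and 548 in yellow tails and 10.6, 28.3 and 13.3 in females (5.00 ± 1.03, limma adjusted p = 0.026). The repressor gene bhlhe41 read 916, 1570.0 and 829 against 98.7, 85.8 and 99.3 (3.48 ± 0.38, limma adjusted p = 2.7e-04). The nuclear receptor gene roraa, an activator of the loop, was at 396, 338 and 312 against 139, 117 and 156 (1.34 ± 0.28, limma adjusted p = 0.027). The call of bhlhe41 held with any of the 6 libraries left out, while those of per3 (highest limma adjusted p 0.11) and roraa (highest 0.14) were lost without any 1 of them.

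Clock genes that were not called, chosen here after their values were seen, lay on both sides. The gene per1b was at 405, 109 and 334 in yellow tails and 44.6, 42.5 and 14.1 in females, and nr1d2b, a repressor of the Rev-erb family, at 1077, 769 and 669 against 123, 265 and 78.2. Below the females lay bmal2, a partner of Clock, at 192, 296 and 247 against 425, 482 and 501.9, and per2 at 213, 166 and 201 against 323, 429 and 458. None of these 4 ranges overlapped. With limma, which took the spread over all 12 libraries, their adjusted p was 0.16, 0.28, 0.63 and 0.16. The labels give no time of day for the sampling, so a part of it in these values was not tested.

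**Figure D3:**
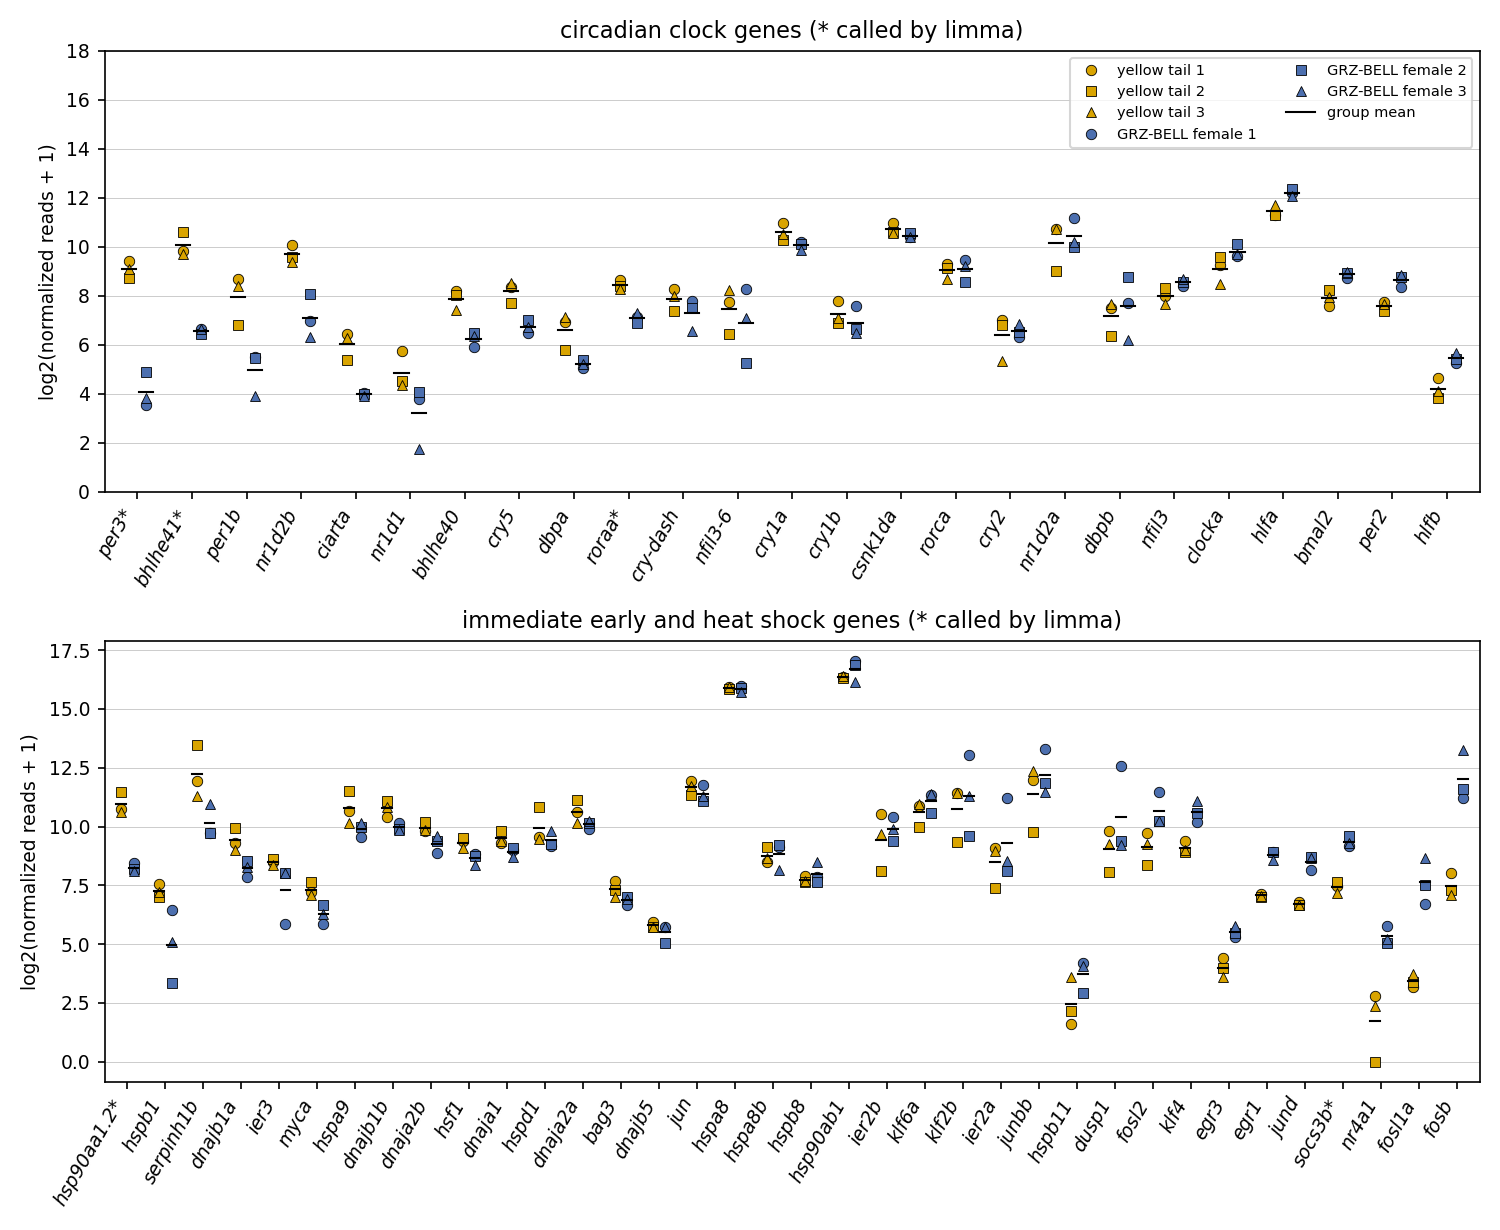
Values of the 25 clock genes (upper panel) and 36 immediate early and heat shock genes (lower panel) in the 6 GRZ-BELL libraries, as log2(normalized reads + 1), ordered by their log2 change, with a line at each group's mean. The genes per3 and bhlhe41 stand highest above the females on the left of the upper panel, and fosb, which was not called, lowest on the right of the lower one.

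Immediate early genes, which respond within minutes to stimuli such as handling, read lower in yellow tails for several members without being called by limma. On their list with heat shock genes, 17 of 36 members had a log2 change above 0 and 19 below. The uncalled ones given here were chosen after their values were seen. Values of fosb were 257, 157 and 135 in yellow tails and 2387, 3128 and 9809 in females (-4.56 ± 1.13, limma adjusted p = 0.070). Those of fosl1a were 8.03, 9.55 and 12.4 against 102, 183 and 409.6, and those of egr1 141, 129 and 133 against 479, 484 and 386. The females were above the yellow tails in every library for these 3 genes. Others overlapped: dusp1 was at 892, 270.1 and 618 against 6121, 672 and 600.4, where GRZ-BELL female 1 alone was high, and jun at 3952, 2579 and 3401 against 3531, 2187 and 2498. Of 36 immediate early and heat shock genes, hsp90aa1.2 rose and socs3b fell, and 17 had an unadjusted p under 0.05, as had 12.3% of all tested genes. Their median log2 change was -0.17. For 11 of the 36 all yellow libraries lay above all female ones and for 9 below, whereas 13.1% and 12.9% of all tested genes did so. DESeq2 called 4 higher and 4 lower, edgeR 2 and 0, and a fit on only the 6 GRZ-BELL libraries 1 and 7. The chaperone gene hsp90aa1.2 was at 1696, 2824 and 1586 against 345, 291 and 275 (2.70 ± 0.33, limma adjusted p = 5.1e-04). The collagen chaperone gene serpinh1b was at 3899, 11480 and 2489 against 838, 845 and 2019, with no overlap, and was not called (limma adjusted p = 0.057).

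Red blood cell genes had a median log2 change of 1.16 in yellow tails, and 2 of the 14 tested rose. The anion exchanger gene slc4a1a read 558, 221 and 342 in yellow tails and 54.0, 29.2 and 139 in females (2.51 ± 0.52, limma adjusted p = 0.027). The transferrin receptor gene tfr1a, which takes up iron, read 707.6, 1054 and 566 against 201, 249 and 358 (1.52 ± 0.30, limma adjusted p = 0.020). The heme synthesis gene alas2, chosen after its values were seen, was at 481, 152 and 253 against 56.4, 26.7 and 168, with an overlap. Summed over the list, normalized reads were 3717 to 4704 in yellow tails and 1641 to 2986 in females. The call of slc4a1a was lost without yellow tail 1 or 3 or GRZ-BELL female 1 or 2 (highest limma adjusted p 0.15) and in a fit on only the 6 GRZ-BELL libraries, and that of tfr1a without yellow tail 1 or 2 or GRZ-BELL female 1 or 2 (highest 0.11). Of the listed genes, hbbe2 and ank1a lay under the filter. The part of blood in the other results was not tested. The blood list shares no member with another list, which does not tell whether blood cells carry genes of those lists.

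Other cell types gave few or no calls. Sums given here run over all entries of a list, tested or not. Summed normalized reads of 20 epidermal entries were 1012400 to 1464800 in yellow tails and 867341 to 1471670 in females. Most of each sum was krt5, so the sums say little about the other epidermal genes. The median log2 change of the list was -0.18. None of the 18 tested was called (2 at an unadjusted p under 0.05, and 0 called by edgeR and by DESeq2). A fit on only the 6 GRZ-BELL libraries called 2 of them lower, and limma without MZCS002 female 2 called 1 lower. For 1 of the 18 all yellow libraries lay above all female ones and for 4 below, whereas 13.1% and 12.9% of all tested genes did so. For 16 macrophage entries the sums were 34510.4 to 58064 and 57111 to 71030.5. The 14 tested had a median log2 change of -0.24 and 0 calls by limma, edgeR and DESeq2 (0 at an unadjusted p under 0.05). Sums for 28 vessel entries (25 tested) were 4987 to 5965 and 6195 to 6779. For 12 neutrophil and mast cell entries (9 tested) they were 3714 to 6698 and 3077 to 9381, and for 16 lymphocyte entries (8 tested) 522 to 869 and 466 to 653. The sums of macrophage genes overlapped between groups and those of vessel genes did not. None of the neutrophil and lymphocyte genes was called by limma, edgeR or DESeq2 (0 and 2 at an unadjusted p under 0.05). Among 9 muscle genes only ckmt2a, a mitochondrial creatine kinase gene, was called, at 152, 158 and 20.6 in yellow tails and 3.52, 5.00 and 0.782 in females (4.47 ± 1.03, limma adjusted p = 0.048). Yellow tail 3 was low for it, and the call was lost without any 1 of the 6 libraries but that one (highest limma adjusted p 0.23), and with a pseudocount of 0.5 or equal library totals. Among 12 tested nerve and glia genes the call was that of foxd3, which is also on the neural crest list. Over all 24 nerve and glia entries the sums were 1688 to 2349 and 2265 to 3309. What these cell types add to the results was not tested.

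Bone and collagen genes varied widely within the groups. Of 25 genes of fin ray bone and matrix, mgp fell and none rose, and the median log2 change was 0.05 with col9a1b, unread in females, set at its bound. Chosen after their values were seen, the collagen gene col1a1a was at 166290, 166870 and 55777 in yellow tails and 47662, 17790 and 130810 in females, and the hypertrophic cartilage and bone collagen gene col10a1a at 44404, 36251 and 20065 against 11627, 849.6 and 42285. Yellow tail 3 and GRZ-BELL females 1 and 2 were low for both, and the ranges overlapped. The bone cell factor gene sp7 was at 522, 531 and 486 against 148, 122 and 291. The groups of sp7 did not overlap, and it was not called (limma adjusted p = 0.16).

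Sex hormone genes were not called. Of 18 tested genes of sex steroids and sex determination, 4 had an unadjusted p under 0.05, beside 12.3% of all tested genes. With limma and edgeR 0 of the 18 were called. DESeq2 called 1 higher, and a fit on only the 6 GRZ-BELL libraries called 1 lower. For 2 of the 18 all yellow libraries lay above all female ones and for 2 below, whereas 13.1% and 12.9% of all tested genes did so. The median log2 change was -0.25. The change was above 0 for 4 members and below 0 for 14, and not all are given here. The androgen receptor gene ar was at 583, 782 and 507.1 in yellow tails and 290.1, 415 and 460.4 in females. Its groups did not overlap, and the change was 0.69 ± 0.29 (limma adjusted p = 0.35). The steroid dehydrogenase gene hsd3b1 was at 174, 303 and 86.6 against 90.4, 25.8 and 14.9, where GRZ-BELL female 1 reached above yellow tail 3 (2.30 ± 0.61, limma adjusted p = 0.097). The estrogen receptor gene esr2a was at 61.2, 65.1 and 59.1 against 52.9, 101 and 84.4, and the progesterone receptor gene pgr at 22.1, 24.3 and 119.6 against 98.7, 49.98 and 39.1, both with overlap. Without GRZ-BELL female 1 limma called hsd3b1.

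Signalling and metabolic lists showed few changes. None was called among 31 Wnt genes, 36 BMP and TGF-beta genes, 17 Notch and Hedgehog genes, 28 glycolysis genes and 69 respiratory chain genes. Nor was any among 27 genes of matrix proteases and inhibitors, 8 thyroid hormone genes and 68 ribosomal protein genes. At an unadjusted p under 0.05 there were, in this order, 6, 4, 3, 1, 0, 2, 1 and 0 of them, beside 12.3% of all tested genes. DESeq2 called 2 of the Wnt genes and 1 each of the BMP, thyroid, and protease and inhibitor genes. edgeR called 1 of the protease and inhibitor genes. Also without a limma call were 7 mucous cell and ionocyte genes, 6 complement genes and 9 potassium channel and gap junction genes (2, 0 and 2 at an unadjusted p under 0.05, none called by edgeR and 1, 0 and 1 by DESeq2). Among 43 solute carriers the call was that of slc7a11. Among 44 genes of the FGF, EGF, PDGF and IGF pathways, fgf14 rose (2.72 ± 0.58, limma adjusted p = 0.030) and igfbp1a fell. The call of fgf14, a gene of an intracellular relative of the fibroblast growth factors, was lost without yellow tail 1 or 2 or GRZ-BELL female 2 or 3 (highest limma adjusted p 0.17).

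**Figure D4:**
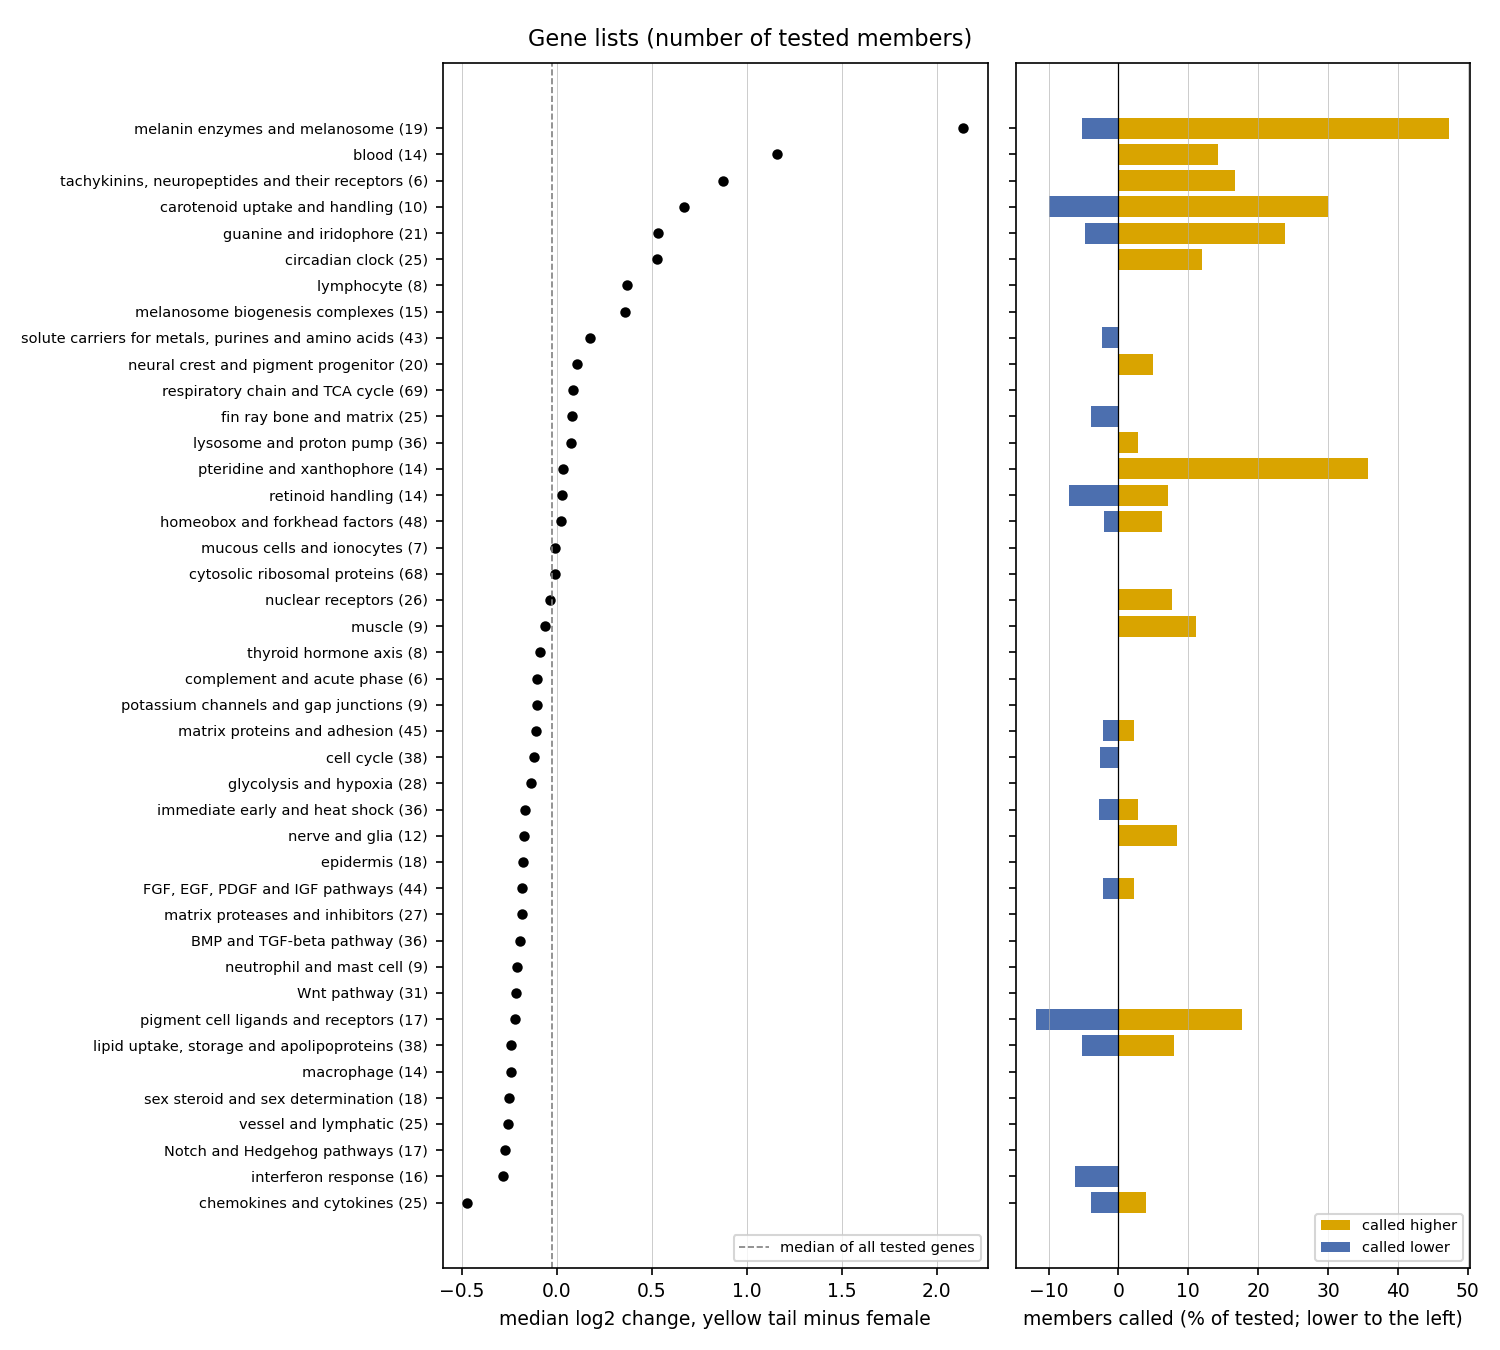
Left, the median log2 change of the tested members of each gene list, with the median of all tested genes (-0.02) as a dashed line; right, the share of tested members called higher or lower, in percent. Melanin genes lie farthest to the right with a median of 2.14, and the pteridine list, with a median of 0.03, has 5 of 14 members called higher.

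The yellow tails differed among themselves. Yellow tail 2 was the highest of the 3 for 160 of the 226 genes that rose, and yellow tail 3 the lowest for 113. Of the 22 genes of the 4 pigment lists that rose, yellow tail 2 was highest for 19 and yellow tail 3 lowest for 16. Members that were not called are not in this count. The median ratio of a library to its group's mean over those 22 genes was 0.84, 1.38 and 0.69 in yellow tails 1 to 3. Females showed no such order over the 226 genes, where females 1, 2 and 3 were highest for 90, 71 and 65. The order of the libraries was not counted over all tested genes. Of these, 275 in yellow tail 2 lay more than 4-fold from the mean log2 value of the other yellow libraries, 117 higher and 158 lower. In yellow tail 3 it was 182 (86 higher and 96 lower), and in yellow tail 1 63 (35 and 28).

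For 27 genes (0.178% of those tested) the difference between tail and female itself differed between the strains in limma, 14 with a greater value in GRZ-BELL. The comparison set yellow minus female in GRZ-BELL against red minus female in MZCS002. Of the 20 with a symbol, 12 were also called between yellow tails and GRZ-BELL females. The microtubule gene map7a, given above for GRZ-BELL, was at 53.4, 51.4 and 49.8 in red tails, against 49.4, 53.4 and 46.2 in MZCS002 females (log2 difference between strains 3.97 ± 0.41, limma adjusted p = 0.0048). Levels of esrrga were 0, 0.803 and 0 in the red tails, against 3.59, 0 and 1.36 in MZCS002 females (7.90 ± 0.91, limma adjusted p = 0.0054). The gene foxq1a was at 2003, 833 and 388 in red tails, against 323, 160.3 and 261 in MZCS002 females. It lay above the females there without being called (log2 change 1.86, limma adjusted p = 0.068), and the difference between strains was called (-5.56 ± 0.75, limma adjusted p = 0.012). Of these, map7a and esrrga kept this call when each of the 12 libraries was left out, and foxq1a lost it without red tail 2 (limma adjusted p = 0.051).

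Some genes rose in tails of both strains by different amounts. The gene vtna was at 238, 390.3 and 425 in red tails, against 13.5, 25.1 and 25.1 in MZCS002 females, so that its increase was greater in GRZ-BELL by 3.98 ± 0.65 (limma adjusted p = 0.037). The gene mreg was at 1352, 2291 and 2142 in red tails, against 125, 78.6 and 164 in MZCS002 females, so that its increase was smaller in GRZ-BELL (-2.37 ± 0.40, limma adjusted p = 0.045). Both calls were lost without any 1 GRZ-BELL female or red tail 2. That of vtna was also lost without MZCS002 female 3, red tail 1 or yellow tail 1 (highest limma adjusted p 0.11), and that of mreg without red tail 3, yellow tail 1, yellow tail 2 or yellow tail 3 (highest 0.15). In all, 5 of the 20 kept the call without any 1 library: esrrga, map7a, pax3a, slc30a8 and slc39a6. Of the melanin, pteridine, guanine and carotenoid lists, mreg and pax3a were among the 27. The median log2 changes of these lists were 2.14, 0.03, 0.53 and 0.67 between yellow tails and GRZ-BELL females. Between red tails and MZCS002 females they were 2.14, 0.79, 0.98 and 0.43. The count of 27 was 7, 11 and 9 without yellow tails 1, 2 and 3, 10, 9 and 10 without GRZ-BELL females 1, 2 and 3, 12, 7 and 64 without red tails 1, 2 and 3, and 55, 134 and 15 without MZCS002 females 1, 2 and 3.

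**Figure D5:**
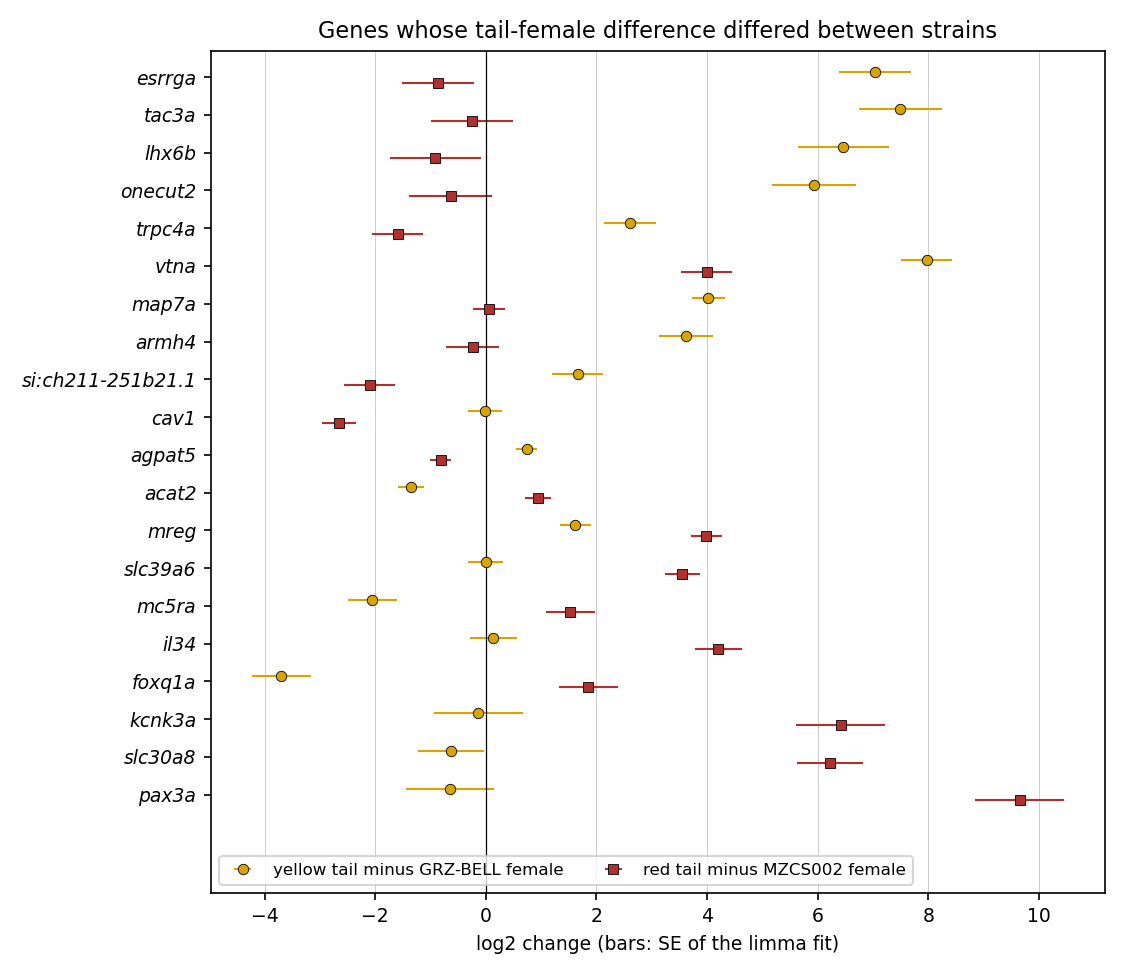
Fitted log2 changes between coloured tail and female, with the SE of the fit as bars, for the 20 named genes whose change differed between strains: yellow circles for GRZ-BELL, red squares for MZCS002. Both marks are to the right of 0 for vtna and mreg, and for foxq1a the yellow circle lies at -3.70 and the red square at 1.86. Fitted values of esrrga, tac3a, lhx6b, onecut2 and pax3a, which had few or no reads in some groups, depend on the added pseudocount.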

How the data were processed

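Tail fin RNA was primed with oligo-dT and sequenced in 12 libraries, 3 in each of 4 groups, per the labels' protocols. The deposited table holds a normalized signal: read counts per RefSeq transcript entry that the authors divided by 1 size factor per library, as its values show. The submitters' processing notes name Trimmomatic, STAR, featureCounts and DESeq2. Not given in the sources used here are their versions, genome build and strand setting. Every value was a whole multiple of what 1 read stands for in its library (tolerance 0.01), which gave the reads behind it. Symbols came from RefSeq (assembly NfurGRZ-RIMD1) for 10617 of 20788 entries, of which 14 share a symbol.

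The samples were grouped by title. Genes with a mean of at least 10 over the 12 libraries (15170) were tested in R 4.3.3 with limma 3.58.1 (trend) on log2(value + 1), with 4 group means in 1 fit and Benjamini-Hochberg adjustment over all tested genes. The test of the strain difference used the same fit. edgeR 4.0.16 (quasi-likelihood) and DESeq2 1.42.0 were run on the recovered reads as alternatives, and the fit was checked on simulated counts. Depth was 5495553 to 17053983 reads. Values for few reads are ratios of group means with exact 95% counting intervals, or bounds against 3 reads in each library. They cover counting error only, since PCR copies were not told apart.

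Named genes are the 15 called symbols that rose most and the 15 that fell most, the 10 called with the highest mean, called list members with the smallest p (up to 8 for each pigment list, 5 for others), every tested melanin, pteridine, guanine and carotenoid member, tested sex steroid members, and symbols called in the strain difference. The text does not give all of these 138 genes. Members and lists were chosen with earlier results of these data known. Tissue marker genes and genes marked so in the text were chosen after their values were seen.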

Additional observations from a re-analysis of the deposited data

Results flagged for a closer look

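The tail-female difference in GRZ-BELL (yellow minus female) differed from that in MZCS002 (red minus female) for 20 genes with a symbol, by a test of the difference itself in limma with adjusted p under 0.05. Values here are that difference on the log2 scale, GRZ-BELL minus MZCS002. Among the genes called higher in yellow tails it was positive for esrrga (7.9), tac3a (7.75), lhx6b (7.38), onecut2 (6.57), trpc4a (4.2), vtna (3.98), map7a (3.97) and armh4 (3.85). For esrrga, tac3a, lhx6b and onecut2, with few or no reads outside yellow tails, and for pax3a, with few outside red tails, the size depends on the pseudocount. With edgeR the calls of tac3a (adjusted p = 0.15) and lhx6b (adjusted p = 0.061) were lost. It was negative for mreg (-2.37), which rose in both strains, and for foxq1a (-5.56), mc5ra (-3.58) and the acetyl-CoA acetyltransferase gene acat2 (-2.3), which fell in yellow tails.

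For 8 genes that were not called between yellow tails and GRZ-BELL females the value was -10.3 for pax3a, -6.84 for the zinc transporter gene slc30a8, -6.55 for the potassium channel gene kcnk3a, -4.07 for il34, -3.56 for the zinc transporter gene slc39a6, 3.76 for si:ch211-251b21.1, 2.64 for the caveolin gene cav1 and 1.55 for the acyltransferase gene agpat5. In the red tails pax3a, slc30a8, kcnk3a, il34 and slc39a6 rose and cav1, si:ch211-251b21.1 and agpat5 fell against MZCS002 females. Colour, strain and what else differs between the strains cannot be told apart in these values.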

How the results depend on the processing

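The number of genes that rose in yellow tails (226) was 371 and of those that fell (53) 175 in a fit on only the 6 GRZ-BELL libraries, and 483 and 228 with DESeq2. Leaving out 1 of the 12 libraries gave 137 to 394 and 13 to 138. The number of genes whose change differed between strains (27) was 16 and 68 with pseudocounts of 0.5 and 10, 13 with a mean of at least 50, 625 with DESeq2, and 7 to 134 with 1 library left out. Same-numbered libraries did not deviate together (correlations 0.05, -0.02 and -0.31), while pairs with unlike numbers ranged from -0.37 to 0.38. With 3 libraries in a group these values cannot settle whether the replicate numbers pair the samples. With the number as a block 180 genes rose, 40 fell and 14 differed between strains.

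Of 74 named genes that were called, 71 kept the call with a pseudocount of 0.5, 69 with 10, 69 without the filter, 74 with quantile normalization, 60 with equal library totals, 70 in the fit on 6 libraries, 69 without the intensity trend, 56 with the replicate block, 45 to 61 with 1 of the 6 libraries left out, 71 with edgeR and 74 with DESeq2. With a mean of at least 50 it was 52, since tac3a among others lost its call or was no longer tested. No named gene that was called changed direction. Several list medians near 0 changed sign, and those given here are examples. The pteridine median was below 0 under quantile normalization, equal library totals and DESeq2. The retinoid median was below 0 under equal library totals, edgeR and DESeq2 (-0.04, -0.01 and -0.02). So were the homeobox median under equal library totals (-0.05) and the lysosome median without yellow tail 2 (-0.02). The respiratory chain median was -0.17 without yellow tail 3. The fin ray bone median was -0.04 without GRZ-BELL female 1 and -0.06 without GRZ-BELL female 2. The immediate early and heat shock median was above 0 without yellow tail 2 (0.09) or GRZ-BELL female 1 (0.13). Depth limits the low genes: 3 reads stand for 2.35 to 4.12 normalized reads in the 6 libraries.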

Other observations

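The genes of this section were chosen after their values were seen. Genes better known from neurons and secretory cells were among those that rose in yellow tails. The secretogranin gene scg3, of dense-core granules, was at 194, 283 and 125 in yellow tails and 48.2, 25.8 and 43.8 in females, a log2 change of 2.29 ± 0.45 (limma adjusted p = 0.018). The synaptic vesicle gene syngr3a was at 238, 465 and 199 against 22.3, 40.8 and 22.7 (3.31 ± 0.36, limma adjusted p = 2.7e-04). The synaptic adhesion gene clstn2a was at 185, 730.3 and 235 against 27.0, 9.16 and 14.1, with yellow tail 2 far above the others (4.29 ± 0.61, limma adjusted p = 0.0017). The axonal motor gene kif1ab was at 163, 272 and 195 against 22.3, 33.3 and 47.7 (2.60 ± 0.41, limma adjusted p = 0.0039), and the diacylglycerol kinase gene dgkb at 303, 405 and 258 against 16.4, 25.8 and 7.82 (4.31 ± 0.40, limma adjusted p = 1.0e-04). In none of these genes did the groups overlap. The call of scg3 was lost without yellow tail 1 or 2 or GRZ-BELL female 2 or 3 (highest limma adjusted p 0.12), and the other 4 held with any of the 6 libraries left out. Of the 12 tested nerve and glia markers, foxd3 alone was called.

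Of 19 tested semaphorin genes, whose products guide growing axons and cells, 3 fell in yellow tails, beside 0.349% of all tested genes. The family was chosen after its values were seen, so the count is not a result about the family. The gene sema6bb was at 41.2, 79.0 and 52.2 against 141, 157 and 215 in females (-1.58 ± 0.33, limma adjusted p = 0.029), and sema5a at 129, 130.3 and 88.0 against 342, 231 and 417 (-1.48 ± 0.32, limma adjusted p = 0.030). For sema3bl the values were 334, 268 and 311 against 569, 566 and 779 (-1.05 ± 0.23, limma adjusted p = 0.037). The plexin receptor gene plxnb1a rose, from 37.6, 24.2 and 33.6 in females to 116, 186 and 106 (2.04 ± 0.39, limma adjusted p = 0.016). All 4 calls depended on single libraries. That of sema3bl was lost without any 1 of the 6 (highest limma adjusted p 0.19), that of sema6bb without any but yellow tail 2 (highest 0.15), and that of sema5a without any but GRZ-BELL female 2 (highest 0.15). That of plxnb1a was lost without yellow tail 1 or 2 or GRZ-BELL female 2 or 3 (highest 0.10).

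Single genes of heme transport, vesicle traffic and ribosome assembly were also called. The heme transporter gene slc48a1a was at 458, 399 and 485 in yellow tails and 179.7, 175 and 192 in females (1.29 ± 0.22, limma adjusted p = 0.0062). The small GTPase gene rab27b, whose family acts in granule and melanosome transport, was at 693, 1309 and 811 against 307, 319.8 and 383 (1.43 ± 0.25, limma adjusted p = 0.0083). The ribosome assembly gene tsr1 was at 586, 850.1 and 458 against 194, 194 and 226 (1.58 ± 0.26, limma adjusted p = 0.0049). No cytosolic ribosomal protein gene was called, as given above.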
